A study of Rattus norvegicus with 4 samples.

Results

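Genes of the endoplasmic reticulum (ER) stress response were described in the hypothalamus of male Wistar rats aged 4 months. The members were 35 listed genes of this response, and a probe belonged to them when its symbol in the normalized table was one of the listed symbols. This gave 27 of the 35 genes, of 21397 genes in all, on 28 of 22523 probes. A further 6 genes (Hsp90b1, Ppp1r15a, Sel1l, Sdf2l1, Edem1 and Ern1) had a probe only under an older name that RefSeq pairs with the gene. They are described beside the members and marked as such. Derl1 and Derl2 had no matched probe and are not analysed here.

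The samples were total RNA of isolated hypothalami on Illumina bead arrays, 1 sample for each of 4 groups. The groups were FR30 offspring on high-fat (HF) diet, FR30 offspring on standard diet, control offspring on HF diet and control offspring on standard diet. FR30 offspring had been undernourished before birth. The sources used here do not give the make-up of the FR30 and HF regimens, or say whether a sample was 1 animal or a pool. With 1 sample a group, no difference between 2 groups has a replicate check.

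Between 10579 and 11122 probes a sample were detected, at a detection p under 0.01. Of 14 marker genes of hypothalamic neurons, 13 were detected in all 4 samples, Sim1 being the exception. Their summed signals were 90131 in FR30 HF, 87214 in FR30 standard, 92020.4 in control HF and 92695 in control standard. Pmch alone gave 39312, 38931, 39810 and 38829 of these in the same order of groups. Some genes of the list differed more. Pomc had 3497, 2318, 2368 and 2029, Sst 2124, 2300, 2366.5 and 2930.5, and Oxt 8197, 8656.5, 7723 and 10024. Npy varied less, with 1708, 1584, 1676 and 1571.5. Markers of neighbouring tissue also differed between the samples. The choroid plexus gene Ttr had a signal of 1251 in FR30 HF, 209 in FR30 standard, 183 in control HF and 523 in control standard, while Otx2, the only gene of that list detected in all samples, had 324, 291, 269.9 and 267 in the same order of groups. Of the same list, the dim Aqp1 had 200, 186, 189 and 201 and the dim Clic6 202, 187, 194 and 194, each detected in 3 samples. Kl, Folr1, Slc4a5 and Prlr of the list were not detected in any sample. Among pituitary hormone genes, Prl had 240.5, 313, 159 and 759 in that order. The dim Lhb, detected in 2 samples, had 171, 192, 161 and 213 and ordered the samples as Prl did. The brighter Tshb had 5329, 4429, 3987 and 3456, and Gal of the same list had 971, 974, 1095 and 1061. These genes did not all order the samples alike. Cga, Fshb, Pou1f1 and Tbx19 were not detected in any, and the summed signals of the list were 7346, 6521, 6007 and 6117. Summed signals of 8 meningeal genes were 13935, 14448, 10312 and 13743, and those of 5 blood genes were 43327, 27238, 41106 and 25003. The part of these tissues, and of the neuron genes, in the results below was not tested. In whole tissue, fewer cells of a type and less RNA per cell cannot be told apart.

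The ER is where secreted and membrane proteins are folded, glycosylated and checked. When unfolded proteins pile up there, sensors in its membrane start the unfolded protein response. PERK (Eif2ak3) phosphorylates the initiation factor eIF2 alpha, which slows translation but favours that of ATF4. IRE1 (Ern1) splices the Xbp1 transcript, and ATF6 moves to the Golgi, where the proteases S1P (Mbtps1) and S2P (Mbtps2) cut it. The transcription factors so made induce chaperones, disulfide enzymes and the machinery of ER-associated degradation, which returns misfolded proteins to the cytosol. In the hypothalamus, ER stress has been studied for its link with high-fat feeding and with resistance to leptin and insulin.

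Many of these genes carry an ER stress response element (ERSE), to which ATF6 binds together with NF-Y. RefSeq promoters (build GRCr8, 250 bases before to 50 after the gene start) were on hand for 28 of the 35 listed genes and were searched on both strands. The ERSE, CCAAT and CCACG with 9 free bases between them, was found in 7 of the 28 (25%), against 0.0657% of all 33469 promoters. ERSE-II, ATTGG and CCACG with 1 free base between them, was found in Dnajb11, Herpud1 and Hyou1, against 0.0508% of all promoters. Together, 10 of the 28 held an ERSE or ERSE-II, and none held both. The UPRE core, TGACGTGG, was found in Hyou1 and Vcp, against 0.595% of all promoters, and in Hyou1 it overlapped an ERSE-II. The composite element TGATGNAAT, bound by ATF4 with C/EBP proteins, was found in 0 of the 28 and in 1.09% of all promoters. A match describes letters and is not a shown binding site. The matches upstream of the gene start are printed on the gene's strand because they are the best known sequence that the chaperone genes share; capitals mark the motif.
Hspa5 (chr3:38452961-38453003, + strand): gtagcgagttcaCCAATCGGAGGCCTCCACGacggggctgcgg
Hsp90b1, first match (chr7:23012439-23012481, - strand): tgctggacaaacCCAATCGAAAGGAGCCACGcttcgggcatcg
Hsp90b1, second match (chr7:23012335-23012377, - strand): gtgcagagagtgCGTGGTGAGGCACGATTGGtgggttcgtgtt
Dnajc3 (chr15:102432522-102432564, + strand): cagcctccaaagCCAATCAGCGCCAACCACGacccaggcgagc
Xbp1 (chr14:84604546-84604588, + strand): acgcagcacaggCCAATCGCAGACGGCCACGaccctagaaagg
Creld2 (chr7:121789227-121789269, + strand): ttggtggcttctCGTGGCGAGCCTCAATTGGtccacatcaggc
Calr (chr19:40213123-40213165, + strand): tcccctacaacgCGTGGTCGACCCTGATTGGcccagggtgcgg
Canx (chr10:35158057-35158099, - strand): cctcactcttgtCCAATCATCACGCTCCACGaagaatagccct
Herpud1, ERSE-II (chr19:10614809-10614843, - strand): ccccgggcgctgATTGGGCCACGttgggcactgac
Hyou1, ERSE-II, first match (chr8:53602682-53602716, + strand): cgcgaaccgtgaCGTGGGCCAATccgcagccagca
Hyou1, ERSE-II, second match (chr8:53602782-53602816, + strand): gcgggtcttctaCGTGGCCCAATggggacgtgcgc

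**Figure D1:**
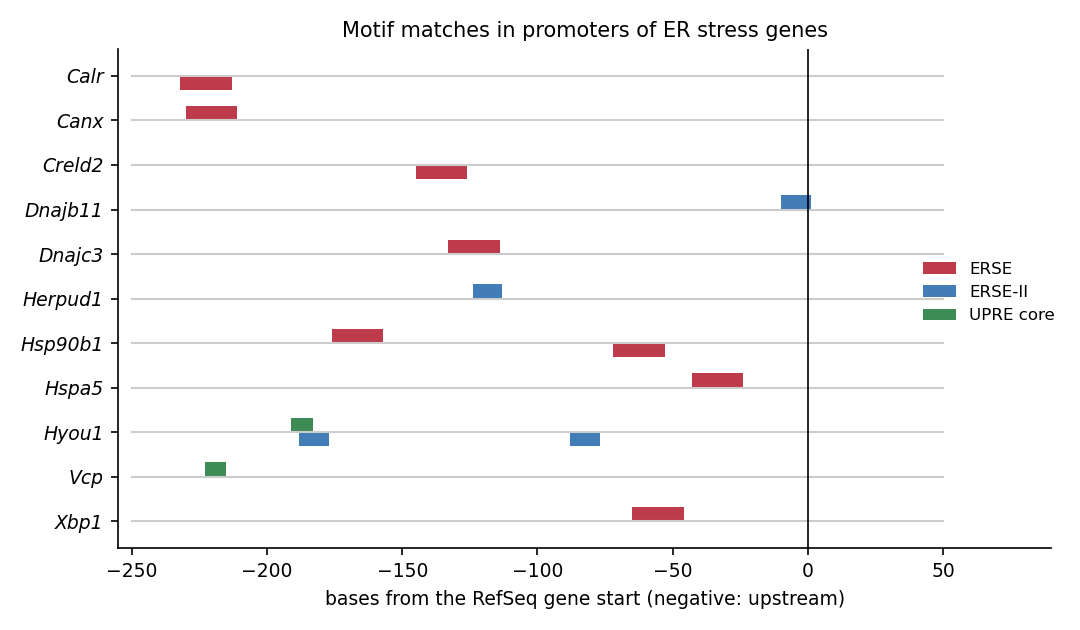
Positions of motif matches in RefSeq promoters of the listed genes that hold any, in bases from the gene start; bars above a line are on the gene's strand and bars below it on the opposite strand. ERSE matches lie between 232 and 25 bases upstream of the start, and the ERSE-II of Dnajb11 reaches the start itself.

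No member detected in all samples differed by 1.5-fold or more between HF and standard diet or between FR30 and control offspring. Of the 27 genes, 24 were detected in all 4 samples. Atf6, Trib3 and Hyou1 were detected in none, so nothing is said of their differences. Differences are in log2 units of the background-corrected, quantile-normalized signal, where 0.58 is 1.5-fold. The furthest member was the same in each of the 4 comparisons, the disulfide oxidase gene Ero1l, at -0.31 for HF against standard diet in FR30 offspring, -0.25 in control offspring, -0.35 for FR30 against control offspring fed standard diet and -0.41 for those fed HF diet. With the authors' normalized signal these were -0.18, -0.17, -0.24 and -0.24. Among all genes detected in both samples, the share past 1.5-fold was 0.324%, 0.587%, 0.776% and 0.802% in those comparisons, so a count of 0 among 24 is near this background.

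Across the 4 samples the 24 members spanned a median log2 range of 0.12, between 0.05 for Xbp1 and 0.66 for Ero1l, beside a median of 0.16 over 10100 genes. Of the 24, 10 had their highest normalized signal in FR30 HF and 10 their lowest in control standard. Over all 10100 genes these shares were 28.0% and 34.2%. The normalized signals below are the authors' linear intensities, given as signal ± deposited SD; what this SD was taken over, and over how many values, is not stated. It lay between 0.254% and 7.79% of the signal for the members, with a median of 2.59%.

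**Figure D2:**
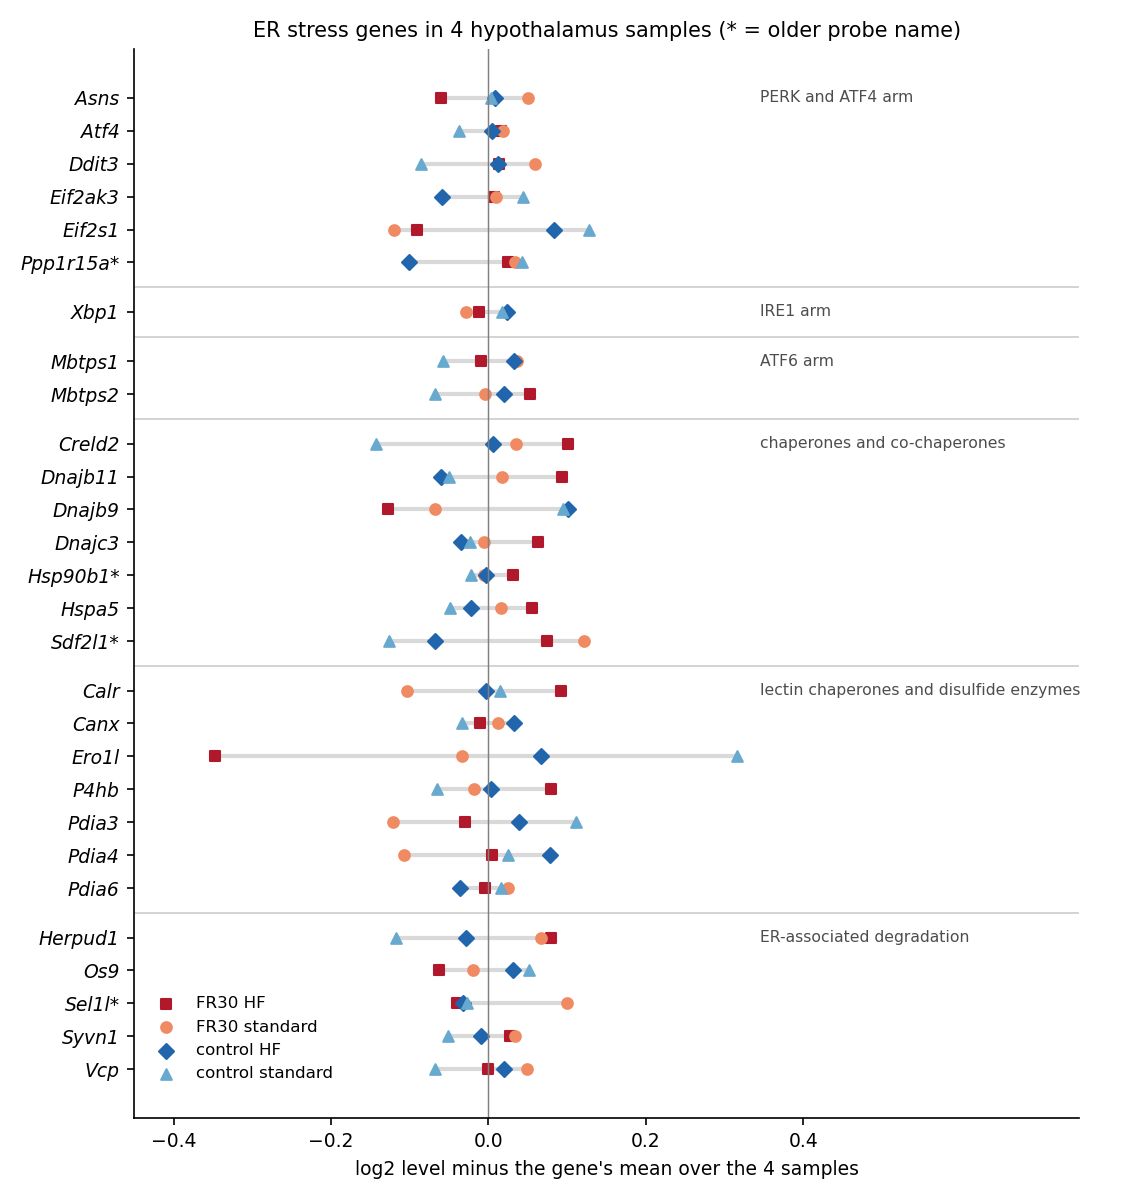
Log2 level of each ER stress gene detected in all 4 samples, minus its own mean over the 4 samples, in the order of the genes' roles; each symbol is 1 sample and an asterisk marks a probe with an older name. All genes but Ero1l span less than 0.25, and the Ero1l samples run from FR30 HF at the low end to control standard at the high end.

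In the PERK arm, the kinase gene and its main transcription factor differed little between groups, while the gene of the PERK substrate was lower in both FR30 samples. Eif2s1, which encodes eIF2 alpha, had signals of 1159 ± 35.0 in FR30 HF and 1133 ± 15.6 in FR30 standard, against 1292 ± 29.2 in control HF and 1331 ± 79.4 in control standard. Both FR30 samples lay below both control samples. The log2 difference between FR30 and control offspring was -0.25 with standard and -0.17 with HF feeding. The HF samples differed from the standard samples by 0.03 in FR30 and by -0.05 in control offspring, with no common direction.

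Atf4 had 2804 ± 65.1 in FR30 HF, 2796 ± 40.4 in FR30 standard, 2773 ± 48.0 in control HF and 2695 ± 87.8 in control standard. All 4 samples lay within a range of 1.04-fold. Eif2ak3, the PERK gene, had 566 ± 23.2, 569 ± 1.45, 548 ± 19.2 and 577 ± 6.76 in the same order of groups, the lowest being control HF. Ddit3 encodes CHOP, a factor of the death branch that ATF4 induces. Its signals were 1464 ± 52.2 in FR30 HF, 1514 ± 33.2 in FR30 standard, 1464 ± 37.4 in control HF and 1373 ± 54.7 in control standard. Control standard was the lowest sample, and the FR30 difference was 0.15 with standard and 0.0014 with HF feeding. Asns, the asparagine synthetase gene that ATF4 induces, had 552 ± 30.7 in FR30 HF, 581 ± 26.6 in FR30 standard, 570.3 ± 39.2 in control HF and 568 ± 11.96 in control standard. These values overlapped within their deposited SD. Ppp1r15a, measured as Myd116, encodes GADD34, which ends the PERK signal by dephosphorylating eIF2 alpha. It had 373 ± 19.3 in FR30 HF, 372 ± 21.8 in FR30 standard, 353 ± 10.1 in control HF and 378 ± 28.8 in control standard, with control HF the lowest. Trib3, a pseudokinase gene downstream of CHOP, had 157 to 161 and was detected in no sample.

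The IRE1 arm was represented by Xbp1 alone, since Ern1, under an older name, had 139 to 145 and was detected in none. Xbp1 had signals of 3352 ± 158 in FR30 HF, 3304 ± 67.6 in FR30 standard, 3449 ± 35.5 in control HF and 3408 ± 34.6 in control standard. This was the narrowest log2 range of the 24 members, 0.05. The sources used here do not give the stretch of transcript that the probe reads, so the spliced form of Xbp1 was not told apart from the unspliced one.

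Of the ATF6 arm, the protease genes were detected and Atf6 itself, at 156 to 166, was not. Mbtps1 had 967 ± 25.4 in FR30 HF, 991 ± 24.1 in FR30 standard, 986 ± 8.20 in control HF and 945 ± 13.1 in control standard. Mbtps2 was dim, with 247 ± 19.3, 243 ± 8.81, 245 ± 3.92 and 238 ± 17.3 in the same order of groups. Both genes were lowest in control standard, by at most 0.09 and 0.12 on the log2 scale.

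Among 5 detected chaperones and their partners, 4 were slightly higher and Dnajb9 lower in the FR30 than in the control sample on each diet, though Hspa5 on standard diet not under every scaling. On standard diet Dnajc3, at 0.017, lay below the median over all genes of 0.019. Hspa5 and Dnajb11 lay within the central 50% of all genes there (-0.069 to 0.091), and Creld2 above it. On HF diet Hspa5 lay within the central 50% (-0.083 to 0.084), and Dnajb11, Dnajc3 and Creld2 above it. Hspa5, which encodes BiP, the main chaperone of the ER lumen and the usual gauge of ER stress, had signals of 12552 ± 556 in FR30 HF, 12134 ± 366 in FR30 standard, 11800.5 ± 61.1 in control HF and 11836 ± 381 in control standard. The FR30 differences were 0.07 on standard diet and 0.08 on HF diet. The HF differences were 0.04 in FR30 offspring and 0.03 in control offspring. The signs of the differences against control standard turned under some of the other scalings tried, to -0.07 for HF diet in control offspring and to -0.0026 for FR30 on standard diet, so Hspa5 is not given a direction there. Hsp90b1, measured as Tra1, encodes the chaperone GRP94 and had 10757 ± 652 in FR30 HF, 10397 ± 165 in FR30 standard, 10436 ± 284 in control HF and 10331 ± 220.3 in control standard. Its values overlapped within the deposited SD.

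BiP's co-chaperones of the J-domain family went in different directions. Dnajb9 (ERdj4), which also restrains IRE1, had 2204 ± 43.8 in FR30 HF and 2288 ± 98.0 in FR30 standard, against 2601 ± 152 in control HF and 2572 ± 56.7 in control standard. Both FR30 samples lay below both control samples, by -0.16 on standard diet and -0.23 on HF diet on the log2 scale. Dnajb11 (ERdj3) had 963 ± 14.8 in FR30 HF and 925 ± 9.65 in FR30 standard, against 888 ± 46.5 in control HF and 895 ± 9.02 in control standard. Here both FR30 samples lay above both control samples, by 0.07 on standard diet and 0.15 on HF diet (as little as 0.03 and 0.10 under other settings). A second Dnajb11 probe was not detected in any sample. Dnajc3 (p58IPK), which also inhibits PERK, had 1049 ± 35.2 in FR30 HF and 1005 ± 12.4 in FR30 standard, against 988 ± 18.6 in control HF and 995 ± 26.7 in control standard, with FR30 HF the highest of 4 close values.

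Creld2, a secreted ER protein that ER stress induces, had 751 ± 43.5 in FR30 HF, 719 ± 6.62 in FR30 standard, 705 ± 25.8 in control HF and 651 ± 44.8 in control standard. The order of the samples was thus the reverse of that of Ero1l. Its difference between FR30 HF and control standard was 0.24. Sdf2l1, another partner of BiP, was measured as LOC680945 and was dim, with 227 ± 15.8 in FR30 HF and 231 ± 3.03 in FR30 standard, against 218 ± 3.12 in control HF and 215 ± 16.9 in control standard. Both FR30 samples were higher, by 0.25 with standard and 0.14 with HF feeding, and by as little as 0.10 and 0.05 under other settings. Hyou1, the nucleotide exchange factor gene of BiP, had 178 to 187 with a detection p between 0.013 and 0.032 and was counted as not detected.

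The lectin chaperones bind sugar chains of folding glycoproteins. Calr, the calreticulin gene, had signals of 13929 ± 275 in FR30 HF, 12142 ± 49.8 in FR30 standard, 12956 ± 526 in control HF and 13294 ± 177 in control standard. FR30 HF was the highest sample and FR30 standard the lowest. The HF difference was 0.20 in FR30 offspring and -0.02 in control offspring, and the FR30 difference was -0.12 with standard and 0.10 with HF feeding. Canx, its membrane-bound relative calnexin, had 2043 ± 99.9 in FR30 HF, 2071 ± 21.3 in FR30 standard, 2080.0 ± 29.1 in control HF and 2011 ± 37.5 in control standard, within a range of 1.05-fold.

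Protein disulfide isomerases make and shuffle disulfide bonds. P4hb, the founding member of the family, had 5784 ± 42.3 in FR30 HF, 5462 ± 202 in FR30 standard, 5514 ± 133 in control HF and 5275 ± 176 in control standard. It was highest in FR30 HF and lowest in control standard, 0.14 apart. Pdia3 (ERp57), the partner of calreticulin and calnexin, had 4388 ± 186 in FR30 HF and 4118 ± 287 in FR30 standard, against 4623 ± 71.9 in control HF and 4890.2 ± 268 in control standard. Both FR30 samples lay below both control samples, by -0.23 on standard diet and -0.07 on HF diet. Pdia4 (ERp72) had 1106 ± 34.1 in FR30 HF and 1032 ± 77.2 in FR30 standard, against 1161 ± 19.5 in control HF and 1125 ± 34.3 in control standard, again lower in FR30 offspring on each diet. Pdia6 had 7345 ± 184 in FR30 HF, 7431 ± 62.1 in FR30 standard, 7118 ± 181 in control HF and 7428 ± 336 in control standard. A dimmer Pdia6 probe, under the name Txndc7, had 2919.7 ± 129.9, 2696 ± 24.0, 2776 ± 106 and 2927 ± 134 in the same order of groups. The probes did not order the samples alike: control HF was lowest with the first and FR30 standard with the second.

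Ero1l, now named Ero1a, encodes the oxidase that takes electrons from disulfide isomerases and so keeps them active. Its signals were 306 ± 17.4 in FR30 HF, 345 ± 11.4 in FR30 standard, 362 ± 2.23 in control HF and 407 ± 24.3 in control standard. The signal was lower with each exposure, and lowest with both. The sample with both exposures was set against the sample with neither after these values had been seen. There Ero1l differed by -0.66 on the log2 scale, or 0.632-fold, and was the only member past 1.5-fold, beside 1.47% of all genes. By more than 2 deposited SD on each side, Dnajb11, P4hb and Herpud1 were higher with both exposures, 3 of 24 beside 6.90% of all genes, and Dnajb9 and Ero1l were lower, 2 of 24 beside 8.26%. The Ero1l ratio was 0.751-fold in the authors' normalized signals, and with a larger offset of 50 it was 0.669-fold, short of 1.5-fold lower in both cases.

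**Figure D3:**
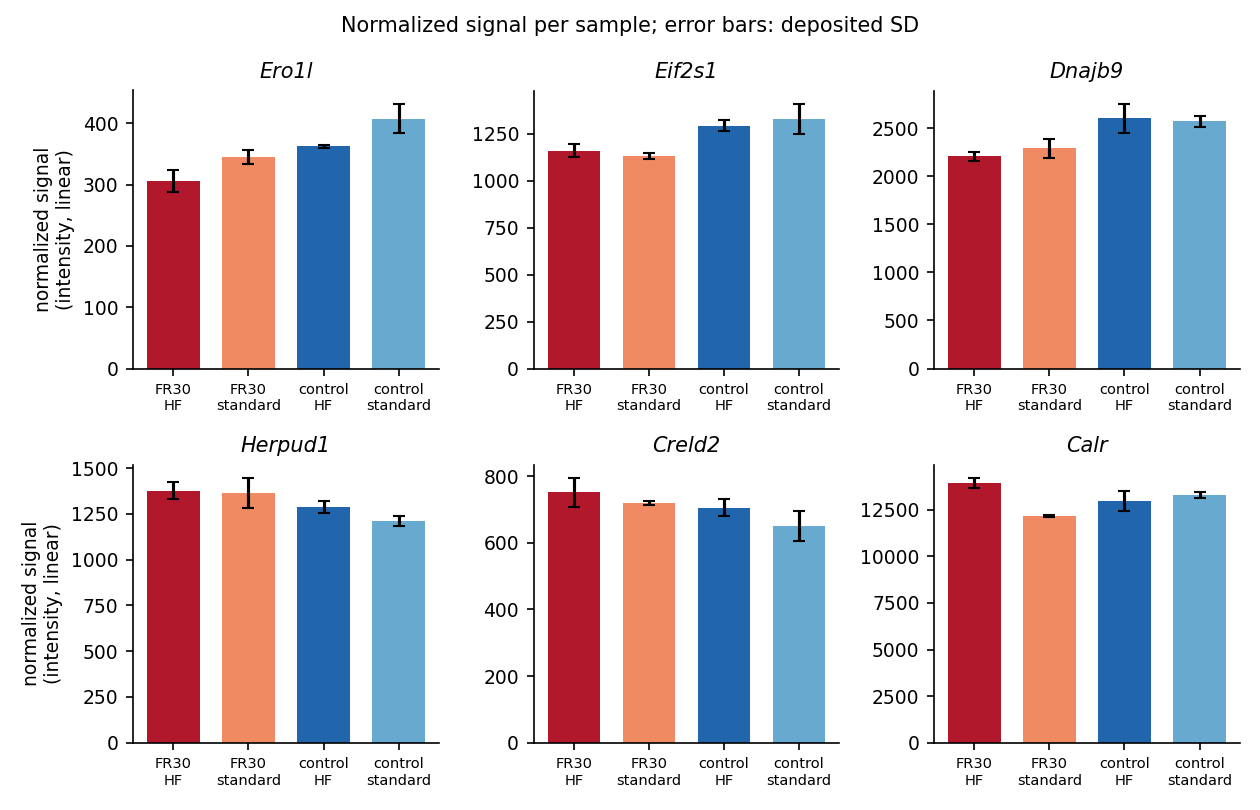
Authors' normalized signal (linear intensity) of 6 members in the 4 samples; each bar is 1 sample and its error bar the deposited SD. Ero1l runs from 306 in FR30 HF to 407 in control standard, Eif2s1 and Dnajb9 are lower in both FR30 samples, Herpud1 and Creld2 are higher in both, and Calr is highest in FR30 HF and lowest in FR30 standard.

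ER-associated degradation draws proteins out through a channel built around the ubiquitin ligase HRD1. Herpud1, a scaffold of that complex and a target of the stress response, had signals of 1378 ± 44.1 in FR30 HF and 1366 ± 80.7 in FR30 standard, against 1289 ± 32.3 in control HF and 1211 ± 26.2 in control standard. Both FR30 samples lay above both control samples, by 0.18 on standard diet and 0.11 on HF diet. Syvn1, which encodes HRD1 itself, had 3381 ± 189 in FR30 HF and 3378 ± 74.1 in FR30 standard, against 3294 ± 103 in control HF and 3182 ± 19.4 in control standard. The differences were 0.08 on standard diet and 0.04 on HF diet, in the direction of Herpud1.

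Os9, a lectin gene whose product hands misfolded glycoproteins to HRD1, had 1453 ± 49.3 in FR30 HF and 1501 ± 89.7 in FR30 standard, against 1554 ± 27.5 in control HF and 1568 ± 16.2 in control standard. It was lower in both FR30 samples, the reverse of Herpud1. Vcp, the ATPase gene that pulls substrates into the cytosol, had 9613 ± 101 in FR30 HF, 9727 ± 331 in FR30 standard, 9643 ± 94.8 in control HF and 9139 ± 184 in control standard, with control standard alone below the others. Sel1l, the partner of HRD1, was measured as Sel1h. It had 356 ± 8.05 in FR30 HF, 379 ± 13.8 in FR30 standard, 355 ± 8.06 in control HF and 358 ± 13.9 in control standard. FR30 standard was the highest and overlapped control standard within the deposited SD. Edem1, a mannosidase-like gene of the same route, had 164 to 177 under its older name and was detected in none.

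For HF diet in FR30 offspring, 12 of the 24 members were higher and 12 lower, with a median log2 difference of 0.0057, beside a median of -0.0024 over 10177 genes. The medians were -0.0023 for the PERK arm, 0.07 for 5 chaperones, 0.09 for 7 lectin chaperones and disulfide enzymes and -0.02 for 4 degradation genes. Calr was higher by more than 2 deposited SD on each side, 1 of 24 members beside 2.65% of all genes, and none of the members was lower by that much, beside 3.63%.

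For HF diet in control offspring, 15 members were higher and 9 lower, with a median of 0.02, beside 0.01 over 10398 genes. Without the quantile step the median was -0.0095, beside -0.0068 over all genes. Xbp1, Hspa5, Asns and Dnajb9 turned from higher to lower under some settings, so the counts give no direction. The median was 0.0061 for the detected chaperones and -0.02 for the lectin chaperones and disulfide enzymes, so neither was raised as in FR30 offspring. The largest differences were Creld2 at 0.15 and Ero1l at -0.25. None of the members was higher by more than 2 deposited SD on each side, beside 4.64% of all genes, and none was lower, beside 6.40%. All 8 meningeal markers (median -0.42) and 6 of 8 thalamus markers (median -0.41 over the 8) were lower on HF diet in this comparison, the exceptions being Tnnt1 at 0.56 and Slc17a6 at 0.0025. Their part in the member values was not tested.

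For FR30 against control offspring on standard diet, 15 members were higher and 9 lower, with a median of 0.05, beside 0.02 over 10184 genes. Herpud1 (0.18) and Creld2 (0.18) stood at the upper end and Ero1l (-0.35), Eif2s1 (-0.25) and Pdia3 (-0.23) at the lower. By more than 2 deposited SD on each side, Syvn1 was higher, 1 of 24 beside 5.37% of all genes, and Eif2s1 and Calr were lower, 2 of 24 beside 6.27%. On HF diet the counts were 13 higher and 11 lower, with a median of 0.0068, beside 0.0043 over 10347 genes. Eif2s1, Dnajb9 and Ero1l were lower by more than 2 deposited SD on each side, 3 of 24 beside 6.51% of all genes, and none was higher, beside 5.90%. With so few members, these counts are near the background.

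**Figure D4:**
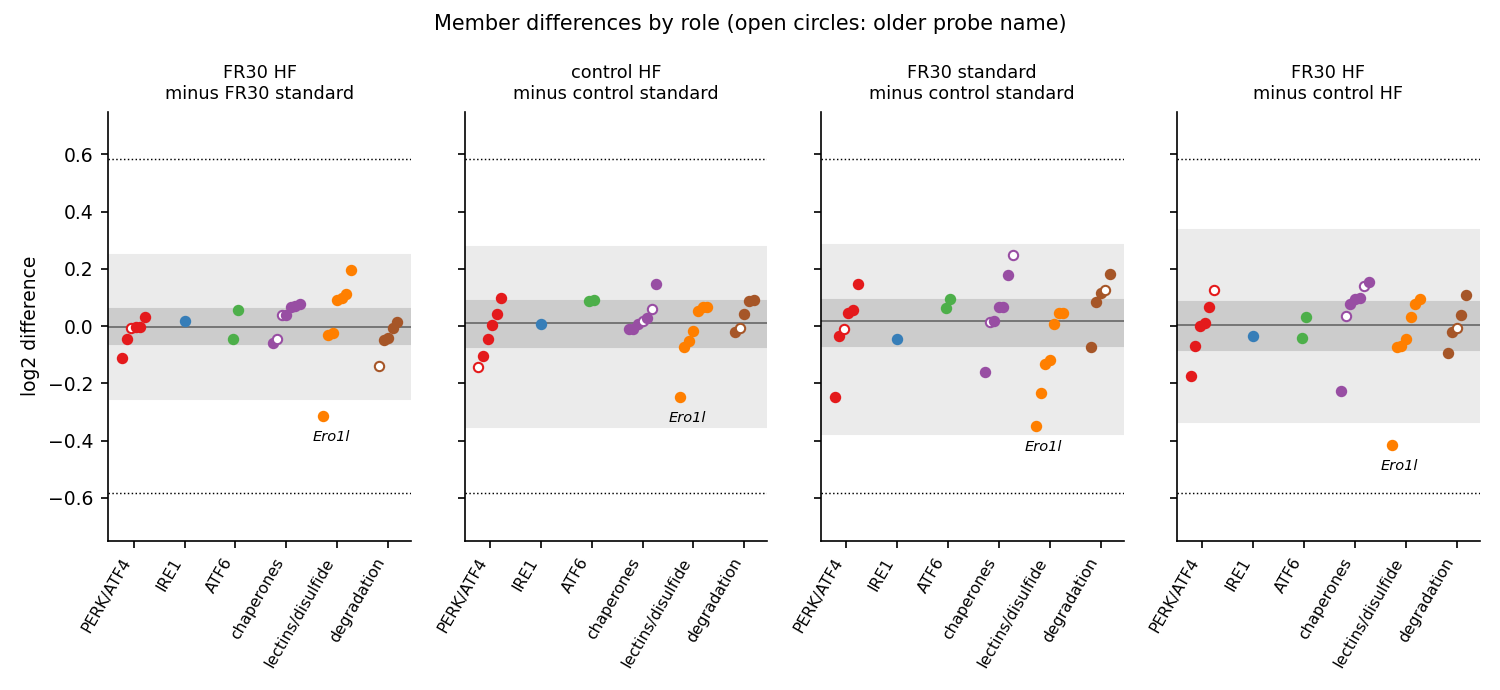
Log2 differences of the members in the 4 comparisons, grouped by role; filled circles are probes with the listed symbol and open circles probes with an older name. Dark and light bands hold the central 50% and 95% of all genes detected in both samples, and dotted lines mark 1.5-fold. No circle reaches a dotted line, and Ero1l is the lowest circle in each panel. Ero1l lies within the central 95% for HF diet in control offspring and for FR30 against control offspring on standard diet.

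The diet and prenatal differences were also estimated over all 4 samples in an additive limma fit, which takes any interaction of diet and prenatal group as noise. It has 1 residual degree of freedom and borrows spread from other genes. None of the 24 members was called for diet at a Benjamini-Hochberg adjusted p under 0.05, where 0.00% of 10100 genes were called. At an unadjusted p under 0.05 there was 1 member, Ero1l, beside 7.12% of all genes. Its limma diet coefficient was -0.28 ± 0.06 (SE), with an adjusted p of 0.596, and the HF sample was the lower one in both pairs. None of the members was called for the prenatal contrast either, where 0.00990% of all genes were. At an unadjusted p under 0.05 there were 3 members, Ero1l, Eif2s1 and Dnajb9, beside 12.7% of all genes.

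The limma prenatal coefficient of Ero1l was -0.38 ± 0.06 (SE), with an adjusted p of 0.178. That of Eif2s1 was -0.21 ± 0.06, with an adjusted limma p of 0.294, and that of Dnajb9 was -0.20 ± 0.06, with an adjusted limma p of 0.319. All of these genes were lower in FR30 offspring on each diet. At the other end stood Herpud1 (0.15 ± 0.06, adjusted limma p 0.415), Creld2 (0.14 ± 0.06, adjusted limma p 0.439) and, under its older name, Sdf2l1 (0.19 ± 0.06, adjusted limma p 0.336). None of these genes passed the test.

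**Figure D5:**
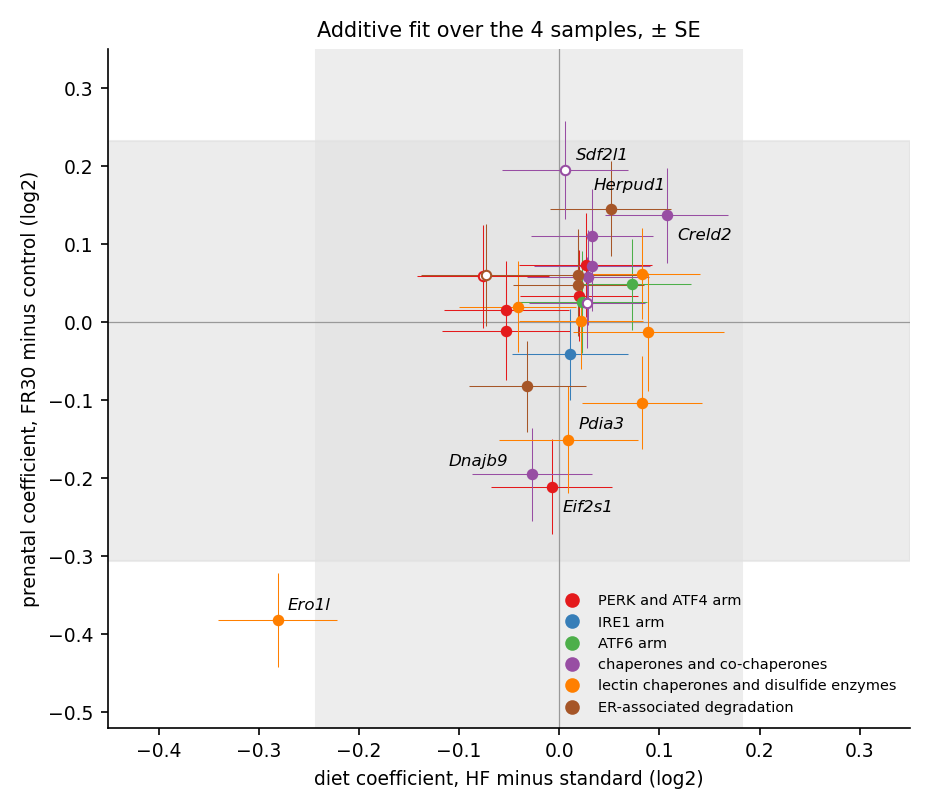
Diet coefficient (x axis, HF minus standard, log2) and prenatal coefficient (y axis, FR30 minus control, log2) of the additive fit for each member detected in all 4 samples, with SE bars; colours give the roles and open circles are probes with an older name. Grey bands hold the central 95% of all genes for each coefficient, and Ero1l at -0.28 and -0.38 is the only member outside both.

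The gap between the 2 diet differences has no test with 1 sample a group. It ran from -0.14 for Ddit3 to 0.21 for Calr, with 11 members above 0 and 13 below. None reached 1.5-fold, beside 1.24% of all genes.

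Members with an ERSE or ERSE-II match in the promoter were read beside those without. Among genes detected in all 4 samples, 9 had a match, Hsp90b1 under its older name included, and 15 had none; the other detected members have no promoter on hand. For HF diet in FR30 offspring the median was 0.04 in the 9, of which 8 were higher, and -0.0082 in the 15, of which 4 were higher, though Atf4, Syvn1 and Ppp1r15a of the 15 turned from lower to higher under some scalings. In control offspring the median was 0.02 in the 9, with 6 higher, and 0.04 in the 15, with 11 higher. Xbp1, Hspa5 and Hsp90b1 of the 9, and Asns and Dnajb9 of the 15, turned there from higher to lower under some settings. For FR30 against control offspring on standard diet the median was 0.05 in the 9, with 7 higher, and 0.06 in the 15, with 10 higher. Hspa5 and Hsp90b1 of the 9 turned there from higher to lower under some settings, to -0.0026 and -0.04. For the same comparison on HF diet the median was 0.10 in the 9, with 7 higher, and 0.0014 in the 15, with 8 higher. Canx of the 9, and Vcp and Sel1l of the 15, turned there under 1 of the settings tried. For HF diet in FR30 offspring the central 50% of all genes lay between -0.063 and 0.060, with both medians inside. Of the other medians, 0.10 in the 9 alone lay outside the central 50% of its comparison, above 0.084. No difference among the 9 exceeded 0.20 in these comparisons, and the 2 sets were not tested against each other.

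Further genes around the response were read from 6 lists that hold no member. Of 29 other genes of the PERK and ATF4 arm detected in all samples, none was called by the fit. Their median prenatal coefficient was 0.08, beside 0.01 over all genes and 0.02 over the members of that arm. The medians of the other lists lay between 0.0072 and 0.03. Nupr1, a small chromatin protein gene that stress induces, was the only gene of the lists past 1.5-fold in any of the 4 comparisons. It had 732 ± 12.8 in FR30 HF and 820.0 ± 19.0 in FR30 standard, against 498 ± 11.1 in control HF and 637 ± 15.3 in control standard. Nupr1 passed in the background-corrected values only. The authors' signals of 732 against 498 on HF diet are short of 1.5-fold. The FR30 difference was 0.43 with standard and 0.71 with HF feeding, and the HF difference was -0.19 in FR30 and -0.47 in control offspring. Its limma coefficients were 0.57 ± 0.09 (adjusted p 0.178) for the prenatal contrast and -0.33 ± 0.09 (adjusted p 0.596) for diet. At the other ends of that list, the eIF2 alpha kinase gene Eif2ak1 (HRI) had -0.12 ± 0.07 for the prenatal contrast, and its relative Eif2ak4 (GCN2) had 0.14 ± 0.06 for diet. The summed signals of 8 meningeal genes, given above, ran in the sample order of Nupr1. On HF diet all of them but Col1a1 and Lum were higher in FR30 offspring, and on standard diet Igf2 and Slc6a13 alone. Their part in the Nupr1 values was not tested.

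Of 19 other genes of the IRE1 and ATF6 arms, none was called. Cisd2, an ER and mitochondrial outer membrane protein gene, had the lowest prenatal coefficient, -0.24 ± 0.06. For diet the ends were Wfs1, the wolframin gene, at 0.21 ± 0.10, and Nfe2l1 at -0.09 ± 0.06. Among 29 other genes of folding and oxidation, Dnajb14, under an older name, which encodes a J-domain protein of the ER membrane, was lowest in both coefficients, -0.29 ± 0.06 for the prenatal contrast and -0.18 ± 0.06 for diet. Its signals of 872 ± 39.9 in FR30 HF, 946 ± 26.6 in FR30 standard, 1006 ± 17.4 in control HF and 1142 ± 40.1 in control standard ran in the order of Ero1l. Its adjusted limma p was 0.202 for the prenatal contrast and 0.659 for diet. The upper ends were the prolyl isomerase genes Fkbp9 (0.21 ± 0.06) and Fkbp7 (0.14 ± 0.06).

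Of 32 genes of N-glycosylation and translocation, none was called, and Spcs2, a signal peptidase subunit gene, was lowest for the prenatal contrast at -0.27 ± 0.06. For diet the ends were Sec11a, the catalytic subunit gene of signal peptidase, at 0.09 ± 0.06 and Ssr2, of the translocon-associated complex, at -0.12 ± 0.07. Of 25 other degradation genes none was called, with Trim13 (0.22 ± 0.08) and Herpud2 (-0.15 ± 0.07) at the ends for the prenatal contrast and Rnf139 (0.11 ± 0.06) and Man1b1 (-0.08 ± 0.06) at the ends for diet. Of 13 genes of ER calcium handling none was called. The calcium pump genes Atp2a3 (prenatal 0.24 ± 0.08) and Atp2a2 (diet -0.10 ± 0.06) and the calcium channel gene Itpr2 (prenatal -0.23 ± 0.09, diet 0.21 ± 0.09) stood at the ends.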

How the data were processed

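Per the labels' protocols, Trizol RNA was column-purified with DNase and made into biotin-labelled cRNA. Per the submitters' processing notes the deposited tables came from GenomeStudio, with no version given. The authors' non-normalized table gives each probe's mean linear intensity, beside a detection p-value that they deposited. Their normalized table holds deposited intensity after a method not given in the sources used here, and, per the file headers, an SD. Another deposited table held the same normalized values.

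Non-normalized intensities were background-corrected from the detection p-values, offset by 16, quantile-normalized and put on the log2 scale with neqc of limma 3.58.1 in R 4.3.3. A gene was represented by its brightest probe. Symbols were matched to RefSeq (GRCr8) names. Pairwise comparisons have no test. The additive fit used lmFit and eBayes with a prior of 3.83 degrees of freedom. It was tried on simulated data with noise from its own prior and no interaction, which cannot test those assumptions. Members and lists were chosen with earlier results of these data known. Every member is described; genes of other lists are named where past 1.5-fold in any of the 4 comparisons or at either end of their list in the fit, except for some that are not reported here. Alternatives were the authors' values, another offset, no quantile step, other detection filters, the mean over probes and a variance trend. Older names were planned for the number of members measured. Their use in the comparisons, the 2 SD gap and the comparison of both exposures with neither were added after seeing the data. The number of arrays limits the precision. Figures were drawn with matplotlib 3.10.9.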

Additional observations from a re-analysis of the deposited data

Results flagged for a closer look

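Calr was singled out because its HF differences had opposite signs in the 2 prenatal groups while its signals in FR30 HF and FR30 standard were more than 2 deposited SD apart on each side. The HF difference was 0.20 in FR30 offspring and -0.02 in control offspring, so the gap was 0.21 on the log2 scale. It kept its sign under the 7 settings tried, between 0.18 and 0.20 in FR30 offspring and between -0.10 and -0.02 in control offspring. In control offspring the signals, 12956 ± 526 with HF and 13294 ± 177 with standard feeding, overlapped within their deposited SD. With 1 sample a group, the gap between the 2 HF differences was not tested.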

How the results depend on the processing

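No paired analysis was possible because each group holds 1 sample. The count of members past 1.5-fold was 0 under every alternative run in the 4 comparisons. In FR30 HF against control standard it was 1 and became 0 with the authors' normalized signal and 0 with offset 50. No member was called by the additive fit under any of its alternatives; the prenatal coefficient of Ero1l stayed between -0.41 and -0.24, with adjusted limma p between 0.0578 and 0.267. The medians of the members stayed between -0.02 and 0.05. Counts over all genes moved more. With the authors' normalized signal, 19 (HF in FR30), 16 (HF in control), 28 (FR30 on standard), 26 (FR30 on HF), 41 (FR30 HF against control standard) and 30 (difference of diet differences) genes passed 1.5-fold, in place of 33, 61, 79, 83, 151 and 125. With offset 50 the counts that moved were 32, 47, 50, 98 and 68 for the last 5 of these. For HF in FR30 offspring 50 genes passed with a detection p under 0.05 and 60 without a detection filter, and 221 for the difference of diet differences without it. The additive fit called 3 genes for diet and 69 for the prenatal contrast with the authors' signal, 2 and 7 with offset 50, and 5 and 205 with a variance trend, in place of 0 and 1; the cause was not tested. Dim members, such as Mbtps2 and Sdf2l1, lie near the background, which limits what a ratio shows.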
